A study of Mus musculus with 6 samples.

Results

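Most of 10 genes for the breakdown of branched-chain amino acids were called higher in the inguinal fat (iWAT, a white adipose depot) of Zip13-KO mice than in that of their WT littermates, and none of the 10 was called lower. These are the genes listed as branched-chain amino acid catabolism: Bcat2, Bckdha, Bckdhb, Dbt, Bckdk, Ppm1k, Ivd, Mccc1, Mccc2 and Acad8. All array probes assigned to a RefSeq transcript of these genes were taken, 12 probes in all, and all 10 genes were among the 15306 genes tested. Among the 10, 6 were called higher and 0 were called lower at an adjusted p under 0.05 (limma) and a change of more than 1.5-fold, which is 0.58 on the log2 scale. At an unadjusted p under 0.05, 8 were higher and 0 lower by limma, and the methods' t-test, run alone without the median-ratio test that the methods combine with it and adjusted over all genes, called 3 higher and 0 lower. Of all genes tested, 10.3% were called higher, 8.38% were called lower and 18.7% were called in either direction. At an unadjusted p under 0.05 by limma, 3876 of the 15306 genes were higher and 3341 were lower. The largest of the rises were those of Bckdha, 1.94-fold, Acad8, 1.92-fold, Mccc2, 1.79-fold, and Bckdhb, 1.74-fold. In bulk tissue RNA, more or fewer cells of a type cannot be told apart from more or less RNA per cell.

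Leucine, isoleucine and valine are first stripped of their amino group by a branched-chain transaminase, which leaves branched-chain keto acids. The branched-chain keto acid dehydrogenase (BCKDH) complex of the mitochondrion then removes a carboxyl group in a step that cannot be reversed. A kinase switches this complex off by phosphorylation and a phosphatase switches it on again, and separate enzymes downstream take the carbon of each amino acid to acetyl-CoA or propionyl-CoA. Adipocytes carry this pathway, which supplies carbon for lipid synthesis, and brown fat uses these amino acids as fuel during heat production.

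Zip13-KO mice lack ZIP13, the zinc transporter encoded by Slc39a13, in the whole body. A Neo cassette replaced exons 6 to 8 of the gene in R1 embryonic stem cells, and the mice were backcrossed for at least 7 generations to C57BL/6J. Both genotypes received powdered food because the mutants have missing teeth, and the labels do not say whether these animals ate the standard or the high-fat food. The mice were 10 weeks old, and 3 WT and 3 Zip13-KO samples were measured on 1 array each. The labels do not state that the samples came from separate animals, so p-values measure the spread between these samples. All arrays lay on 1 slide. On the WT arrays 62.5% to 63.2% of the spots were well above background, and on the Zip13-KO arrays 58.8% to 60.4%. Before normalisation, the median signal was 39.2 to 40.6 intensity units in WT and 33.2 to 35.0 in Zip13-KO. The median local background was 31 to 39.5 intensity units over all arrays, and no spot was saturated. Slc39a13 was 11.29, 10.87 and 10.72 on the WT arrays and 6.76, 6.66 and 6.47 on the Zip13-KO arrays in log2 intensity, a log2 fold change of -4.33 (SE 0.17, adjusted p = 0.00128 from limma). Whether its probe lies in the deleted exons was not checked here.

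The values below are quantile-normalised log2 intensities, in the order replicate 1, 2 and 3, and fold changes are Zip13-KO minus WT on the log2 scale. Brightness depends on the probe as well as on the transcript, so levels were not compared between genes. Where a gene had more than 1 probe, the brightest stood for the gene.

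Both E1 subunits of the BCKDH complex were called higher in Zip13-KO iWAT, and its E2 subunit was not called. Bckdha, which encodes the E1 alpha subunit that decarboxylates the keto acids and carries the sites that the kinase phosphorylates, was 13.03, 13.54 and 13.38 on the WT arrays and 14.21, 14.28 and 14.33 on the Zip13-KO arrays. Every Zip13-KO array lay above every WT array, and the Zip13-KO arrays lay closer together. The log2 fold change was 0.96 (SE 0.14, adjusted p = 0.00748, limma). Bckdhb, the E1 beta subunit, was 12.54, 12.97 and 12.96 on the WT arrays and 13.60, 13.58 and 13.67 on the Zip13-KO arrays, again without overlap. Its change was 0.80 (SE 0.13, adjusted p = 0.00998). These were the only members called under all 6 ways of leaving out 1 array.

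Dbt, the E2 transacylase that forms the core of the complex, was 7.60, 8.34 and 7.82 on the WT arrays and 8.37, 8.44 and 8.43 on the Zip13-KO arrays. The genotypes did not overlap, but WT replicate 2 came close to the lowest Zip13-KO array. The log2 fold change of 0.49 (SE 0.19, adjusted p = 0.0892) did not pass the test. Without WT replicate 2 it was 0.71 and was called (adjusted p = 0.0184). Without WT replicate 1 it was 0.33 (adjusted p = 0.173, limma), and it was called in none of the other 5 ways. Dld, the E3 subunit that this complex shares with the pyruvate and 2-oxoglutarate dehydrogenase complexes, was called higher with a log2 fold change of 1.0 (SE 0.16, adjusted p = 0.00870), and its second probe gave 1.03.

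The kinase of the complex was called higher, and the phosphatase was not called on either of its probes. Bckdk, the kinase that inactivates E1, was 10.84, 10.97 and 10.92 on the WT arrays and 11.51, 11.56 and 11.44 on the Zip13-KO arrays. Its WT arrays lay closest together among the members, with an SD of 0.064 (n = 3), and the genotypes did not overlap. The change of 0.59 on the log2 scale (SE 0.076, adjusted p = 0.00633) lay just over the fold limit. Without WT replicate 1 and without Zip13-KO replicate 2 it was 0.56 each and fell short of the fold limit, with an adjusted p of 0.00965 and 0.0333.

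Ppm1k, the mitochondrial phosphatase that reactivates the complex, had 2 probes. On the brighter one it was 16.73, 16.78 and 16.59 on the WT arrays and 16.80, 16.80 and 16.75 on the Zip13-KO arrays. Here the genotypes overlapped, and the log2 fold change was 0.085 with a 95% interval from -0.11 to 0.28 (adjusted p = 0.429). This probe lay near the top of the intensity range, where that of Cfd averaged 17.46. Whether this limits its change was not tested. The log2 fold change was 0.22 with 75th percentile scaling (adjusted p = 0.0958, limma). It was 0.23 with the mean of the probes (adjusted p = 0.0951, limma), and the lowest value under any alternative was 0.032. On the dimmer probe Ppm1k was 8.19, 8.60 and 8.55 on the WT arrays and 8.77, 8.69 and 9.01 on the Zip13-KO arrays. These did not overlap, and the log2 fold change of 0.37 did not pass the test over all probes (adjusted p = 0.108). The change of Ppm1k was smaller than that of Bckdk by 0.51 on the log2 scale within arrays, with all Zip13-KO arrays below all WT arrays for this difference (p = 0.1 in a two-sided exact permutation test, which cannot go lower with 3 arrays against 3). With the dimmer probe the gap was 0.22 and the genotypes overlapped (exact permutation test, p = 0.2). Among 4 pairs of genes compared in this way, the adjusted p for the brighter probe was 0.133.

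**Figure D1:**
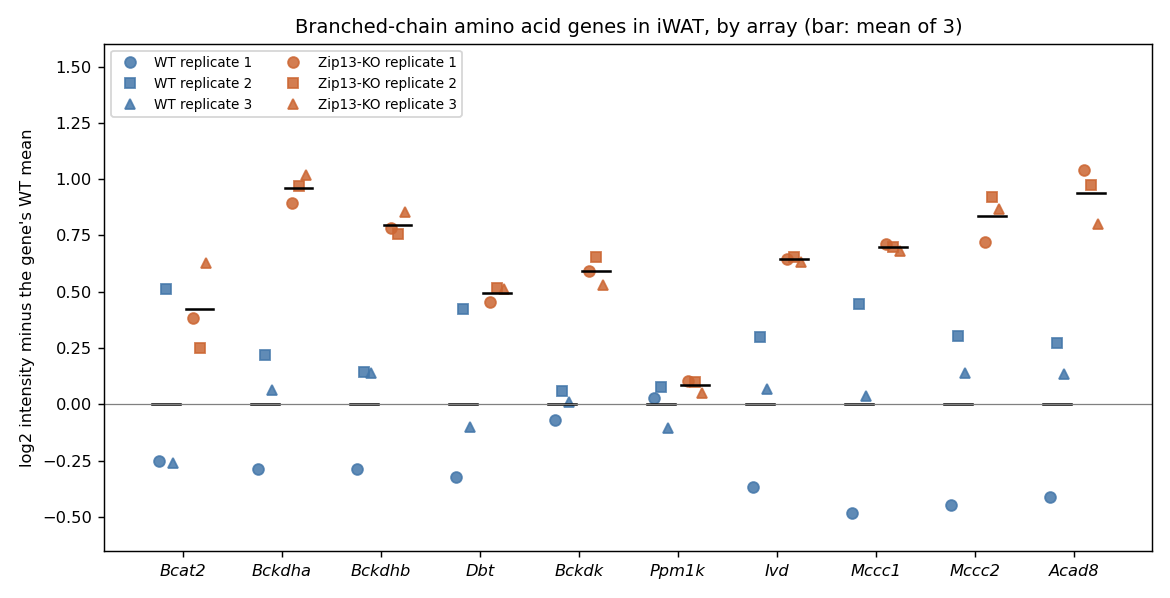
Log2 intensity of each of the 10 genes on each array, less the mean of the 3 WT arrays for that gene; points are arrays, shapes give the replicate number, and bars are means of 3. The Zip13-KO arrays lie above all WT arrays for 8 genes and overlap with them for Bcat2 and Ppm1k.

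The stretches in front of the genes for the E1 subunits and the kinase are given here because these 3 members were called by the methods' t-test as well as by limma. They are the 250 bases before an annotated transcript start in RefSeq on mouse assembly GRCm38.p6, written 5′ to 3′ on the strand of the gene: chr7:25658762-25659011 on the minus strand for Bckdha, chr9:83924887-83925136 on the plus strand for Bckdhb, and chr7:127903823-127904072 on the plus strand for Bckdk. The gene spans of Bckdha and Bckdhb, which start farther upstream, cover the last 21 and 26 bases of their windows. Capitals mark a CCAAT box, the motif CCAAT on either strand.
Bckdha: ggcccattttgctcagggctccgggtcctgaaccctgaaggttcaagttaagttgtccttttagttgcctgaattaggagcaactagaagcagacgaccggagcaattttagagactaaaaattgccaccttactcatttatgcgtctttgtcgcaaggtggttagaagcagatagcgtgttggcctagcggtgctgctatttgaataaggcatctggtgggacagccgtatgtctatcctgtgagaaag
Bckdhb: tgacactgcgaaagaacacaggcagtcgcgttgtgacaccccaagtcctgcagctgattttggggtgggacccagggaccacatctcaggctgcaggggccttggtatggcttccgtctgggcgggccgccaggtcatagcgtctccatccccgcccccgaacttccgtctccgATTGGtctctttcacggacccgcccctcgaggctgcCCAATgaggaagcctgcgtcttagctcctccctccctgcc
Bckdk: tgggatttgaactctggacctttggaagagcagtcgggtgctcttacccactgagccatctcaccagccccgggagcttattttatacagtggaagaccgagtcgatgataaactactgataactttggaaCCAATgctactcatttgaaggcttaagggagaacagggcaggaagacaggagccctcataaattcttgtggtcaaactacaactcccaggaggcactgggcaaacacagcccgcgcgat
The Bckdha window held no CCAAT, the Bckdhb window shown held 2 and the Bckdk window held 1. A second Bckdhb window, at a start inside the gene, held 0. For 9 of the 10 members there were 11 windows, with 2 each for Bcat2 and Bckdhb, and Dbt had none. A CCAAT was found in 7 of the 11 windows, 1 each of Acad8, Bckdhb, Bckdk, Ivd, Mccc1, Mccc2 and Ppm1k, whereas 33.8% of all 32851 mouse windows of the same length and 34.7% of the 15341 windows of tested genes held it. These genes include Ppm1k, whose change did not pass the test, and lack Bckdha, whose log2 fold change was the largest of the members. The letters AAGGTCA and TTGCNNAA, as used for binding sites of ERR and C/EBP factors, were searched on both strands and were in no window of a member. They were in 4.08% and 9.56% of all windows. The motifs were chosen after the expression values were known, and a match in these windows is a description of the letters only.

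In the leucine arm, which follows the BCKDH step for leucine, Ivd, Mccc1 and Mccc2 lay higher in Zip13-KO iWAT. Ivd, the isovaleryl-CoA dehydrogenase, was 12.48, 13.15 and 12.92 on the WT arrays and 13.49, 13.50 and 13.48 on the Zip13-KO arrays. The Zip13-KO arrays were nearly equal, with an SD of 0.011 (n = 3), and all lay above the WT arrays. This gave a log2 fold change of 0.64 (SE 0.17, adjusted p = 0.0320), a call that was kept only without WT replicate 2 among the 6 ways of leaving out 1 array. Without WT replicate 1 the log2 fold change was 0.46, under the fold limit, and without WT replicate 3 or Zip13-KO replicate 1, 2 or 3 the adjusted p was 0.0590, 0.0938, 0.0916 and 0.0811. Ivd lies on chromosome 2, 27.8 Mb from Slc39a13 (GRCm38.p6), and was the only member on that chromosome.

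Mccc1 and Mccc2 encode the biotin-carrying alpha subunit and the beta subunit of methylcrotonyl-CoA carboxylase. Mccc2 was 9.83, 10.59 and 10.42 on the WT arrays and 11.00, 11.20 and 11.15 on the Zip13-KO arrays. All Zip13-KO arrays were above all WT arrays, and the log2 fold change was 0.84 (SE 0.20, adjusted p = 0.0244). Without Zip13-KO replicate 1, 2 or 3 the adjusted p was 0.0639, 0.0795 and 0.0696. On its brighter probe, Mccc1 was 12.20, 13.13 and 12.72 on the WT arrays and 13.40, 13.38 and 13.36 on the Zip13-KO arrays. There was no overlap, but the spread of the WT arrays was the widest among the members, with an SD of 0.47 (n = 3). The log2 fold change of 0.70 (SE 0.23, adjusted p = 0.0568) did not pass the test. Without WT replicate 2 it was 0.92 and was called (adjusted p = 0.0229). Without WT replicate 1 it was 0.46 (adjusted p = 0.0537, limma), and it was called in none of the other 5 ways.

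The dimmer Mccc1 probe, for the same transcript, was 10.26, 10.83 and 10.66 on the WT arrays and 11.55, 11.53 and 11.42 on the Zip13-KO arrays. Its log2 fold change of 0.92 (SE 0.16) passed the test over all probes (adjusted p = 0.0130). The rises of the carboxylase subunits differed by 0.14, Mccc2 over the brighter Mccc1 probe, and the genotypes overlapped for this difference (exact permutation test, p = 0.3). Within the E1 heterodimer the change of Bckdhb was smaller than that of Bckdha by 0.16, with no overlap between genotypes (exact permutation test, p = 0.1, the smallest possible, and 0.133 after adjustment over the 4 pairs).

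Acad8, the isobutyryl-CoA dehydrogenase of the valine arm, was 6.71, 7.40 and 7.26 on the WT arrays and 8.16, 8.10 and 7.92 on the Zip13-KO arrays. All Zip13-KO arrays lay above all WT arrays. The log2 fold change was 0.94 (SE 0.19, adjusted p = 0.0149), and without Zip13-KO replicate 1 or 2 the adjusted p was 0.0583 and 0.0550.

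The first step of the pathway is served by a mitochondrial and a cytosolic transaminase, of which the cytosolic one was called lower and the mitochondrial one was not called. Bcat2, the mitochondrial enzyme, was 12.07, 12.84 and 12.06 on the WT arrays and 12.71, 12.58 and 12.96 on the Zip13-KO arrays. WT replicate 2 lay above 2 of the 3 Zip13-KO arrays, and the log2 fold change of 0.42 (SE 0.23, adjusted p = 0.203) did not pass the test. Without that array it was 0.68 and was called (adjusted p = 0.0262). Without WT replicate 1 or 3 it was 0.30 and 0.29 (adjusted p = 0.405 and 0.413, limma). It was called in none of the other 5 ways of leaving out 1 array. Bcat1, the cytosolic enzyme, was 9.44, 7.97 and 7.59 on the WT arrays and 5.99, 6.57 and 6.61 on the Zip13-KO arrays. All Zip13-KO arrays lay below all WT arrays, and WT replicate 1 stood well above the other WT arrays.

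The log2 fold change of Bcat1 was -1.94 (SE 0.49, adjusted p = 0.0274), and its 3 probes were all called lower, from -1.64 to -1.94. The call was lost without Zip13-KO replicate 1, 2 or 3, and the log2 fold change lay between -2.31 and -1.39 over the 6 ways of leaving out 1 array. The difference between the changes of Bcat2 and Bcat1 was 2.37, with no overlap between genotypes (exact permutation test, p = 0.1, the smallest possible, and 0.133 after adjustment over the 4 pairs).

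Over the 10 members together, every fitted change was above 0 and the median log2 fold change was 0.67, whereas it was -0.00051 over all genes tested. In 8 members all Zip13-KO arrays lay above all WT arrays, which was so for 29.2% of all genes, and in 0 members they lay below all WT arrays, against 25.9% of all genes. The WT arrays spread more than the Zip13-KO arrays: the WT SD was the larger in 10 of the 10 members and in 68.9% of all genes. The median SD over the members was 0.35 in WT and 0.056 in Zip13-KO, where it was 0.16 and 0.10 over all genes. Replicate 2 was the highest WT array for all 10 members, and replicate 1 was the lowest WT array for 8 and replicate 3 for the other 2. The number of members called moved with the array left out: it was 9 without WT replicate 2, 4 without WT replicate 1, 5 without WT replicate 3, and 3, 2 and 4 without Zip13-KO replicates 1, 2 and 3.

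On the slide, Zip13-KO replicate 1 shared column 1 with the WT arrays, while the other Zip13-KO arrays occupied column 2. A fit with the column as a term leaves 1 Zip13-KO array to compare with the 3 WT arrays. It cannot separate the genotype from that single array. The median log2 fold change of the members was 0.68 in this fit and 0.67 without the term. Within column 1, Zip13-KO replicate 1 lay above all WT arrays for 9 of the 10 members, with Bcat2 the exception. The share of all genes for which this 1 array lay above all WT arrays was not counted. It is at least the 29.2% of all genes in which all 3 Zip13-KO arrays lay above all WT arrays. The count of 9 therefore has no like share beside it. For the members, the distance of Zip13-KO replicate 1 from the WT mean ran from 0.10 for Ppm1k to 1.04 for Acad8 on the log2 scale.

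The rest of the pathway was described with 28 further genes, all of them tested. Of these, 16 were called higher and 4 were called lower, with a median log2 fold change of 0.75. The shares over all genes tested were 10.3% and 8.38%, also for the arms, complexes and marker lists below. Of the 16 called higher, 9 were called under all 6 ways of leaving out 1 array, and of the 4 called lower, 2 were. The number called higher was 9 without Zip13-KO replicate 1 and 10 without replicate 2 or replicate 3. The number called lower was 2 in each of these. Over all genes, 961, 1027 and 1291 were called higher without Zip13-KO replicates 1, 2 and 3, and 782, 791 and 1051 lower.

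Downstream of propionyl-CoA, where the carbon of valine and part of that of isoleucine enters, all 6 genes listed were called higher, with a median of 0.91. Pccb and Pcca, the subunits of propionyl-CoA carboxylase, had log2 fold changes of 1.11 (SE 0.16, adjusted p = 0.00711) and 0.84 (SE 0.21, adjusted p = 0.0256). Pccb was 9.40, 9.98 and 9.85 on the WT arrays and 10.81, 10.87 and 10.86 on the Zip13-KO arrays, a clear gap between the genotypes. Mcee, the methylmalonyl-CoA epimerase, rose by 0.79, and Mmut, the mutase that makes succinyl-CoA with a cobalamin cofactor, rose by 0.74. Mmaa and Mmab, which load that cofactor, rose by 0.98 each. The calls of Pcca, Mmut and Mmab were lost when any 1 of the Zip13-KO arrays or WT replicate 3 was left out, and that of Mmut also without WT replicate 1.

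In the isoleucine and valine arms 4 of 7 genes were called higher. These were Echs1, the short-chain enoyl-CoA hydratase, with a log2 fold change of 0.85, Hibch, which frees 3-hydroxyisobutyrate in valine breakdown, with 0.83, Acadsb, the dehydrogenase of the isoleucine arm, with 0.73, and Hibadh, the 3-hydroxyisobutyrate dehydrogenase, with 0.67. Among these, Hibch was called under all 6 ways of leaving out 1 array. The call of Echs1 was lost when any 1 of the Zip13-KO arrays was left out, that of Hibadh without WT replicate 1 or Zip13-KO replicate 1, and that of Acadsb when any array other than WT replicate 2 was left out. Abat, the GABA transaminase, had the lowest value of the list, -0.13 (adjusted p = 0.586). In the leucine arm Acat1, the mitochondrial acetoacetyl-CoA thiolase, rose by 0.87 and Auh, the methylglutaconyl-CoA hydratase, rose by 0.77. Oxct1, which activates ketone bodies, had a log2 fold change of 0.21 (adjusted p = 0.278).

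The transporters moved in both directions. Slc25a44, the carrier that brings branched-chain amino acids into mitochondria, was 7.63, 7.81 and 7.82 on the WT arrays and 8.95, 8.89 and 8.75 on the Zip13-KO arrays. This separation gave a log2 fold change of 1.11 (SE 0.093, adjusted p = 0.00418), but a probe for another transcript of the gene gave 0.11 and was not called. Of the carriers of the plasma membrane, Slc43a1 (LAT3) rose by 0.87. Slc7a8 (LAT2) fell by 1.43, Slc7a5 (LAT1) fell by 0.98 and Slc43a2 (LAT4) fell by 0.84 on the log2 scale. A second, dimmer probe for Slc7a5 gave 0.02 and was not called, and the call of Slc43a2 was lost when any 1 of the Zip13-KO arrays was left out.

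Klf15, a transcription factor known to act on genes of amino acid breakdown, was 9.44, 9.63 and 10.29 on the WT arrays and 10.74, 10.79 and 11.04 on the Zip13-KO arrays. The genotypes did not overlap and the log2 fold change was 1.07 (SE 0.23, adjusted p = 0.0179), a call that was lost when any 1 of the Zip13-KO arrays was left out. The genes that attach biotin to the carboxylases and recycle it, Hlcs and Btd, were not called, at -0.19 and 0.44. Named after their values were seen, Slc3a2, the partner chain of LAT1 and LAT2, at -0.47, Hsd17b10 at 0.46 and Btd were among the genes of the list that passed the adjusted p but not the fold limit.

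**Figure D2:**
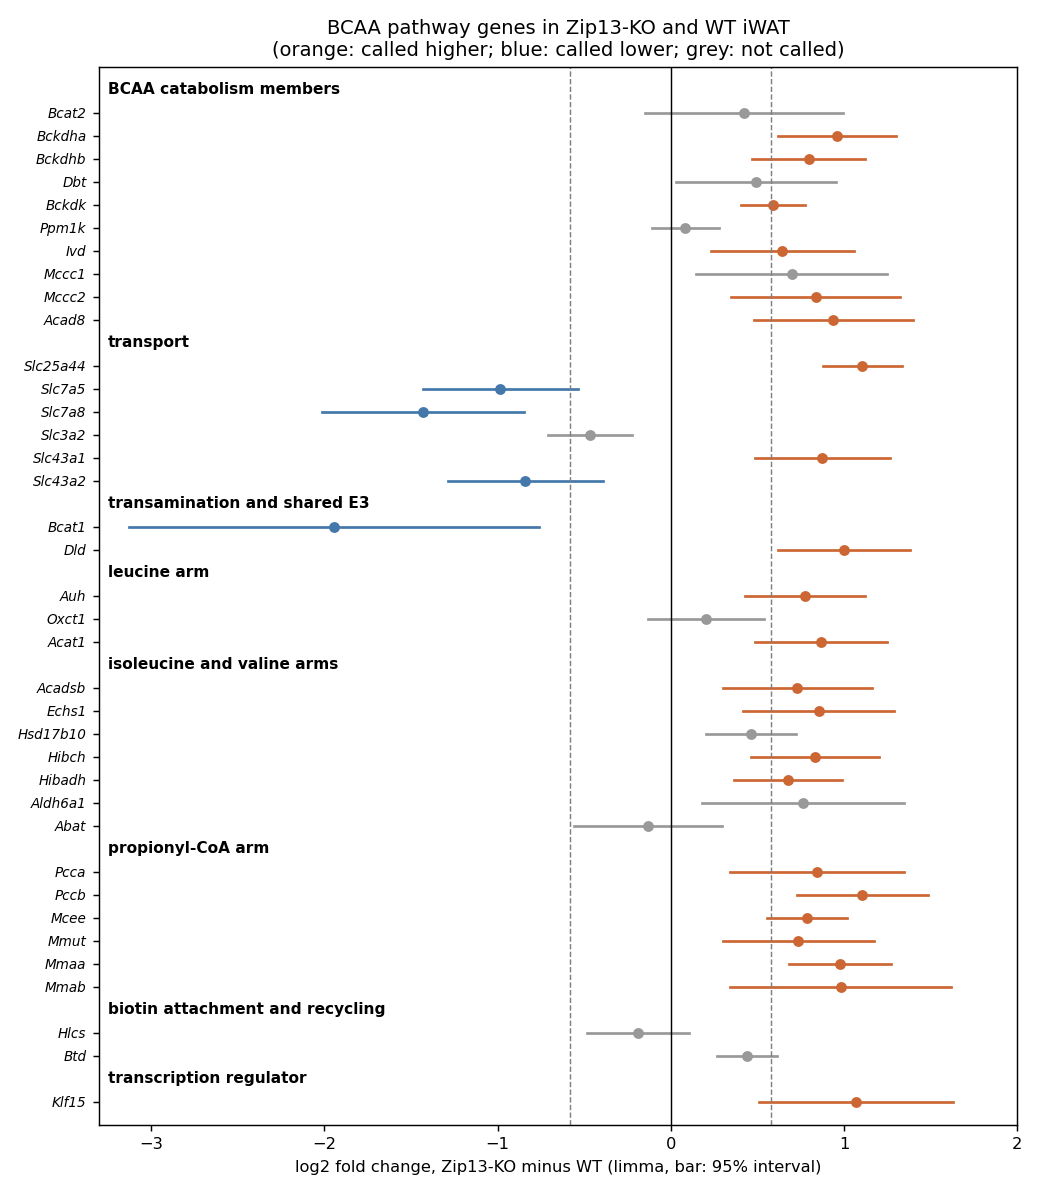
Log2 fold change, Zip13-KO minus WT, of the 10 members and of other genes of the pathway, grouped by step; points are limma estimates, bars are 95% intervals and dashed lines mark the 1.5-fold limit. All 6 genes of the propionyl-CoA arm lie to the right of the limit, and Bcat1 and 3 plasma membrane carriers lie to the left of the lower one.

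The pyruvate and 2-oxoglutarate dehydrogenase complexes are built from the same kinds of subunits as BCKDH, and pyruvate dehydrogenase is also switched by kinases and phosphatases. Of 11 genes listed for the pyruvate dehydrogenase complex, Pdpr did not pass the filter on dim probes, and of the 10 tested, 8 were called higher and 1 lower, with a median of 1.18. Its E1 subunits Pdha1 and Pdhb had log2 fold changes of 1.29 and 1.26, its E2 Dlat 1.26 and its E3-binding protein Pdhx 0.96. The E1 subunits and E2 of BCKDH had 0.96, 0.80 and 0.49, side by side with these and not tested against them. Among the kinases of the pyruvate complex, Pdk4, Pdk2 and Pdk1 rose by 1.25, 1.21 and 0.69 and Pdk3 fell by 0.61.

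The phosphatase gene Pdp2 rose by 1.16, and Pdp1 had -0.10 (adjusted p = 0.610). The calls of Pdhb (without Zip13-KO replicate 1 or 2) and Pdhx (without Zip13-KO replicate 2) were lost with 1 array left out. For the 2-oxoglutarate complex, Ogdh and Dlst, its E1 and E2, rose by 0.96 and 0.89, although 1 of 3 Ogdh probes gave 0.0064 and was not called.

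**Figure D3:**
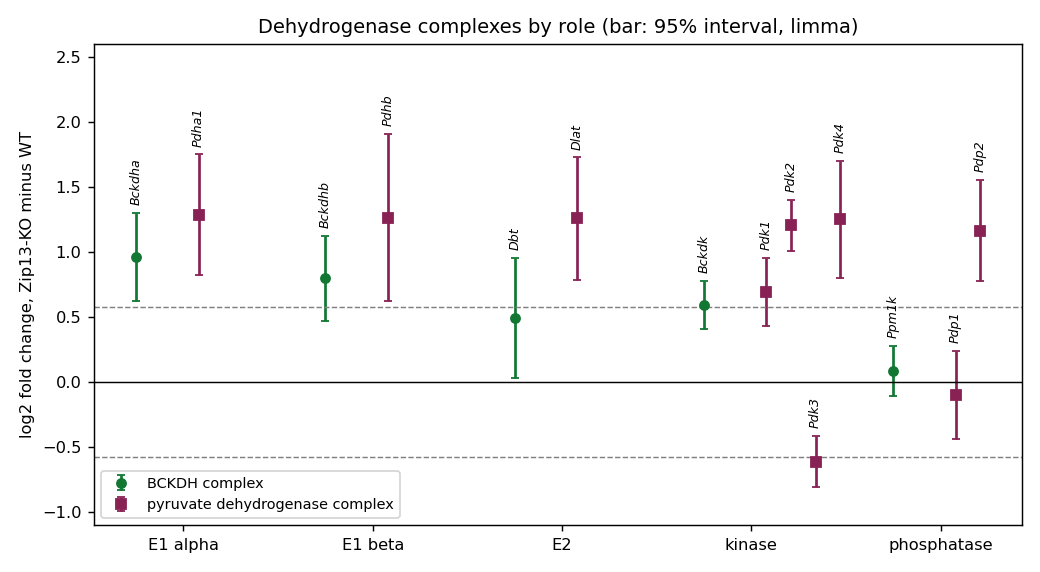
Log2 fold change, Zip13-KO minus WT, of the subunits, kinases and phosphatases of the BCKDH complex (circles) and the pyruvate dehydrogenase complex (squares), with 95% intervals from limma and dashed lines at the 1.5-fold limit. Ppm1k and Pdp1 lie near 0 and Pdk3 lies below it, while the E1 and E2 subunits of both complexes lie above it.

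Markers of the cells in the tissue moved as well. All 12 adipocyte markers had a change above 0 and 4 were called higher (Plin1, Lipe, Pparg and Cebpa), with a median log2 fold change of 0.52, while the methods' t-test called 0 of the 12, with 7 at an unadjusted p under 0.05. The probe that was brightest in this list over the 6 arrays, that of Cfd, gave 0.034. The summed linear intensity of the 12 was 743047 to 936837 in WT and 1028450 to 1064610 in Zip13-KO, a ratio of the means of 1.23. Much of it came from Cfd, Car3 and Fabp4, at 172119, 147389 and 140271 on WT 1. The log2 fold changes of Car3 and Fabp4 were 0.15 and 0.20. These probes and that of Cfd lay near the top of the intensity range. Whether this limits their changes, and with them the ratio of 1.23, was not tested. The sum of the 10 members had a ratio of 1.22, but 61.4% to 77.2% of it came from the bright Ppm1k probe. Without Ppm1k the sum of the other 9 was 32070 to 49246 in WT and 65972 to 69225 in Zip13-KO, a ratio of 1.65. The adipocyte sum was not taken without its brightest probes, so the ratios of 1.65 and 1.23 are not like measures. On the arrays WT 1, 2 and 3 the median of the adipocyte markers relative to the WT mean was -0.32, 0.20 and 0.08, where that of the members was -0.30, 0.29 and 0.05. On the Zip13-KO arrays it was 0.53, 0.51 and 0.56 for the markers and 0.68, 0.68 and 0.66 for the members. The order of the WT arrays was thus the same for both lists, with replicate 1 the lowest.

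All 9 markers of brown or beige adipocytes were called higher, with a median of 2.19, and their summed intensity was 36528 to 59138 in WT and 164334 to 254708 in Zip13-KO. The methods' t-test called 7 of the 9. Their brightest probe was that of Cox8b, at 1.67. Of 10 macrophage markers 9 were called lower, with a median of -1.23, and their sum was 80250 to 123697 in WT and 39850 to 49176 in Zip13-KO. Here the methods' t-test called 7 of 10. The brightest probe of this list was that of Csf1r, at -1.03, and Itgam, at -0.17, was the one not called. Among 8 markers of stromal progenitors and fibroblasts 2 were called lower, Dpp4 and Pdgfra, and the sum was 176610 to 372004 in WT and 161143 to 198327 in Zip13-KO. The methods' t-test called 0 of these 8, with 2 at an unadjusted p under 0.05, and the brightest probe, that of Dcn, gave -0.40. Of 6 endothelial markers 1 was called higher, Cdh5, and the sum was 6623 to 7018 in WT and 8514 to 8901 in Zip13-KO. Either test called 1 of the 6, and the brightest probe, that of Kdr, gave 0.13.

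Skeletal muscle was listed as well. Of its 11 tested markers 9 had a change above 0, with a median log2 fold change of 0.51. Limma called 0 of the 11, and so did the methods' t-test. The 1 marker at an unadjusted p under 0.05 (limma), Ryr1, fell, with a log2 fold change of -0.62. The sum of the muscle markers overlapped, 2255 to 4455 in WT and 2626 to 8793 in Zip13-KO, with a ratio of the means of 1.57. It was highest on Zip13-KO replicate 3. Myh1, a fast muscle myosin, did not pass the filter on dim probes. Limma called 0 of 9 lymph node markers, of which 6 fell at an unadjusted p under 0.05, and 0 of 5 mammary epithelium markers, of which 1 rose at that level, and the methods' t-test called 0 of either list. The sums were 60282 to 72101 and 44270 to 50433 for the lymph node, and 121 to 350 and 127 to 462 for the mammary epithelium, in WT and Zip13-KO. Of the latter, Krt8 and Elf5 did not pass the filter. The brightest probes of the muscle, lymph node and mammary lists, those of Tnni2, Cd79b and Krt18, gave 0.35, -0.50 and 0.67 and were not called. The part of these cell types in the rise of the members was not tested.

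**Figure D4:**
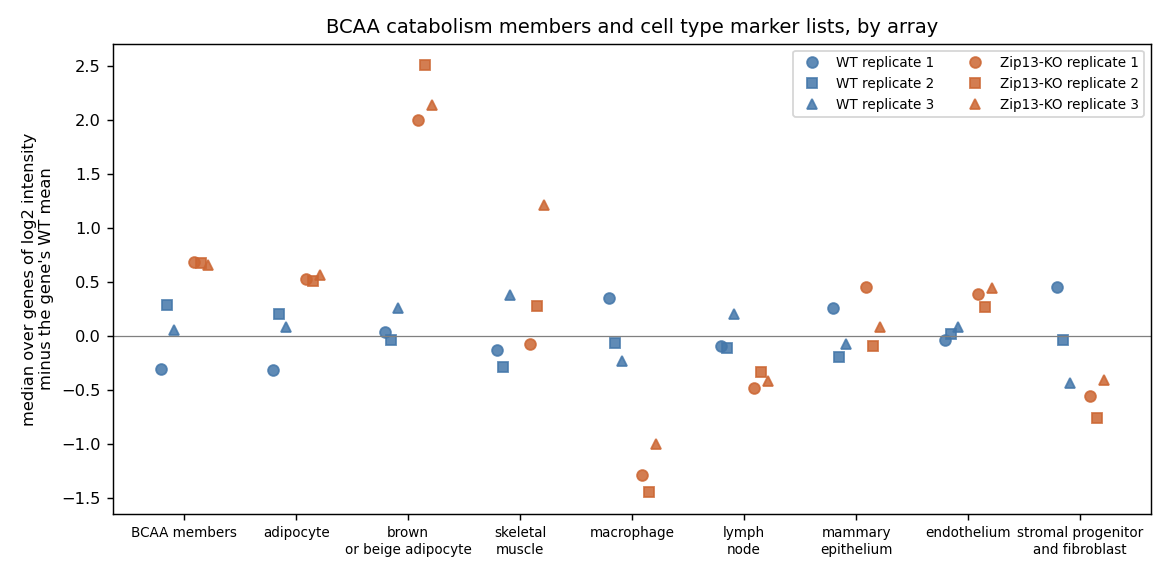
Median over the genes of each list of log2 intensity less the WT mean of the gene, by array; points are arrays, shapes give the replicate number. The members and the adipocyte markers lie at similar heights and in the same order on the WT arrays, the brown or beige markers lie far higher on the Zip13-KO arrays, and the macrophage markers lie lower.

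The genes whose values over the 6 arrays were most like the mean of the members, each member centred on its own mean, were Aox1, Ephx2, 6430550D23Rik, Echdc3 and Tmc5. Their Pearson r with that mean was 0.9998, 0.9989, 0.9981, 0.9980 and 0.9975, and their log2 fold changes were 0.79, 0.71, 0.88, 1.06 and 1.37. The points share the arrays and fall into the genotypes, and 1055 of 15296 genes had an r above 0.95, so the likeness is a description only.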

How the data were processed

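Total RNA of iWAT from 3 WT and 3 Zip13-KO samples was labelled with Cyanine 3 and hybridised to Agilent 1-colour arrays. The authors deposited scanner files (Feature Extraction 11.5.1.1, per the submitters' processing notes and headers) with spot intensity, already corrected for background, and a table of quantile-normalised log2 values. The deposited table was used as an alternative.

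Here, control and outlier spots were left out, log2 processed signals were averaged over the spots of a probe, and the probe values were then quantile normalised. A probe was kept when at least 1 genotype had it well above background on each of its 3 arrays (33046 of 55681), and symbols came from RefSeq accessions (GRCm38.p6, 20318 kept probes). The brightest probe stood for a gene. Genotypes were compared with limma 3.58.1 (R 4.3.3, statmod 1.5.0), with Benjamini-Hochberg adjustment over 15306 genes. Sequences were read with Python 3.11.15 and pandas 2.3.3, and figures were drawn with matplotlib 3.10.9. The steps were tested on simulated data. Depth is set by signal over background, and the number of arrays limits the precision.

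The members and lists were chosen with earlier results of these data known. Named were all members, the called genes of the pathway and of the related complexes with their largest rise and fall, Slc39a13, the marker with the brightest probe in each list and the 5 genes most like the members. The value of 1 gene of the pathway list, which is included in the counts, is not reported here. Defining markers and genes behind small counts were named after their values were seen. Alternatives were other scalings, background corrections, filters, probe summaries, tests and thresholds, the slide column, the replicate number as a block, and leaving out each array.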

Additional observations from a re-analysis of the deposited data

How the results depend on the processing

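No member changed direction under any alternative. Of 170 single-gene values, 135 kept their direction and side of the threshold, 26 lost the call and 9 gained it. The other filters, the replicate block, the methods' t-test and the intensity trend did not alter the fold changes, so none could reverse. Nor could leaving out 1 array reverse the 8 members without overlap. The 135 include members that stayed uncalled, as Ppm1k did in all 17 of its values. The number of members called higher was 6 in the main setting and 3 with the methods' t-test, where Bckdha, Bckdhb and Bckdk were called, and likewise 3 at an adjusted p under 0.01. It was 0 with the slide column as a term and 2 to 9 when 1 array was left out. It was 5 to 7 under the other scalings, background corrections, filters, probe summaries and priors. The median change of the members was 0.51 to 0.83 when 1 array was left out. Mccc1 was called with 75th percentile scaling, both other background corrections, the deposited table, the mean of its probes and the intensity trend, and Bckdk fell under the fold limit with both background corrections and the deposited table. The causes were not tested.

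Of the other pathway genes, the methods' t-test called 10 higher and 2 lower, and leaving out 1 array gave 9 to 17 and 2 to 4. Over all genes, 1576 were higher and 1282 lower. The counts were 1007 and 721 with the methods' t-test, 0 and 7 with the slide column, 707 and 505 at an adjusted p under 0.01, 2951 and 2330 with no minimum fold change, and 961 to 1672 and 782 to 1455 with 1 array left out.

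The replicate numbers gave no sign of pairing the samples. Same-numbered arrays of the genotypes had correlations of -0.021, 0.038 and -0.080 between their deviations from the genotype means. Those of arrays with different numbers ran from -0.17 to 0.18. With 3 arrays per genotype these values cannot decide whether the samples were paired. With the replicate number as a block, 5 members were called, and the call of Ivd was lost (adjusted p = 0.0567).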
